A study of Caenorhabditis elegans with 4 samples.

Results

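The regions described here lie on chromosome X in the list of peaks and background that the authors derived from 4 merged replicates of a ChIP-seq experiment on UNC-62 in Caenorhabditis elegans. They were chosen by chromosome alone, and number 3845 of 18556. ChIP-seq recovers and sequences the DNA that is bound, directly or through other proteins, by a chosen protein. The material was whole L3 larvae of mixed sex from strain OP600. The strain is an unc-119(ed3) mutant with the integrated transgene wgIs600, which carries unc-62 joined to TY1, EGFP and FLAG tags together with an unc-119 rescue gene. All 4 biological replicates share this genotype and stage and form 1 group, and the labels give no untagged or mutant group. The label of the antibody names unc-62. For replicates 1 and 2 the labels give fragments of 150 to 350 bp and worms from a stock center. For replicates 3 and 4 they give sonication with a microtip and worms from the laboratory. Whole larvae hold all tissues, so a region bound in few cells and one bound weakly in many cannot be told apart.

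UNC-62 belongs to the TALE homeodomain proteins and is related to Homothorax in flies and to the MEIS and PREP proteins of vertebrates, which bind DNA with PBX-type and Hox partners. In C. elegans it acts in embryonic patterning, in larval cell lineages and in intestinal gene expression of the adult. Chromosome X is present in 2 copies in hermaphrodites and in 1 copy in males. In hermaphrodites a condensin-based dosage compensation complex is recruited to X at a limited set of recruitment sites, which carry a recurring DNA motif, and lowers transcription along the whole chromosome. The 8 letters GCGCAGGG searched here are taken from within that motif. The share of males among the larvae is not in the labels, and the part of X copy number in the results was not tested.

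Of the strongest regions on X, several carried GCGCAGGG next to the summit, the base where the authors' caller placed the maximum of the region. The 6 sequences that follow show them, since these 8 letters were found at optimal summits on X and at none on the autosomes. Each spans 50 bp to either side of the summit on the plus strand of ce11 (WBcel235), is free of annotated exons and is named after the nearest protein-coding gene. Capitals mark GCGCAGGG, and in the first sequence also TGACAG, the MEIS-family core, each on either strand. They come from chrX:14525838-14525938, chrX:11094144-11094244, chrX:2997068-2997168, chrX:6296516-6296616, chrX:4209214-4209314 and chrX:806651-806751, in this order.
nspc-17: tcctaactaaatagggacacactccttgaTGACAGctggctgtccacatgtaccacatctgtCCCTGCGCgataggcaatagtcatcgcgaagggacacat
W02H3.3: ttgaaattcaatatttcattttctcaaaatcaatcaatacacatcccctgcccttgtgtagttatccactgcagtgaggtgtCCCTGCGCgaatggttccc
Y41G9A.17: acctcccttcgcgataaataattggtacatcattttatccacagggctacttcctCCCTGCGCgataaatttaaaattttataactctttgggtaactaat
cest-16: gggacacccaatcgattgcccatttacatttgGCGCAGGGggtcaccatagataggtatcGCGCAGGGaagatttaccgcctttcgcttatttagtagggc
F20B6.9: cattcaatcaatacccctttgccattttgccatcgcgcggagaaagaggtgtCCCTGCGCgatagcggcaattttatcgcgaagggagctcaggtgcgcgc
gtr-1: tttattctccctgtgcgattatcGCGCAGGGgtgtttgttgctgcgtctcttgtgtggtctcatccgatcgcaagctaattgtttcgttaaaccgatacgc

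The region near nspc-17 (chrX:14525774-14526001), a gene of a nematode-specific peptide family, had the highest signal on X. Signal is the authors' value per region, and this region had 216.7, rank 5 in the merged list. Its ranks in replicates 1 to 4 were 9, 2, 4 and 19, and its summit lay in the promoter, 707 bp upstream of the start. The region near W02H3.3 (chrX:11094059-11094318) lay between genes, with a signal of 189.7 and rank 10. It was the highest region of all in replicate 3, and ranked 8, 35 and 149 in replicates 1, 2 and 4. The other 4 of these regions lay in introns or between genes, with signals from 95.6 near gtr-1 to 138.3 in Y41G9A.17. The one named after cest-16, a carboxylesterase-type gene, lay in an intron of mom-1, which encodes a protein needed for Wnt secretion, and held the 8 letters at 2 places.

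Across the merged list, 18 X summits held GCGCAGGG within 50 bp, and 6 autosomal ones did. These 18 had a median signal of 64.5, and the other 3827 X summits had 14.6. Of the 18, 2 were overlapping regions in Y41G9A.17. Of the merged X regions, 249 are also in the authors' optimal list, which holds the 1037 regions of highest merged signal. Among these 249, GCGCAGGG lay at 11 summits (4.42%), and at 0 of 788 autosomal ones, a count that allows a share of up to 0.381% by counting error alone. These 8 letters were in 0.0388% of all windows of that length on X and in 0.0263% of those on autosomes. Of the 10 strongest X regions, 4 held GCGCAGGG, and of the 50 strongest, 9 did.

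The replicates taken singly showed the same order, with 1 autosomal match in replicate 4. In each, the 1037 nuclear regions of highest signal were used, as many as the optimal list holds. GCGCAGGG lay at 11 of 249 X summits in replicate 1, 8 of 237 in replicate 2, 7 of 228 in replicate 3 and 6 of 244 in replicate 4. The shares were 4.42, 3.38, 3.07 and 2.46%, and on autosomes 0, 0, 0 and 0.126%. The ranges did not overlap, and the mean share was 3.30 percentage points higher on X (SD 0.865, n = 4). The exact two-sided sign-flip test over the 4 replicates gave p = 0.125, the smallest that 4 replicates allow, and adjusted p = 0.146 over the 14 measures tested this way. No measure could therefore pass 0.05 by this test, and directions are given by the number of replicates that show them. With 25 bp in place of 50 bp the difference was 1.77 points, still higher on X in 4 of 4.

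Read from the genome side, X held 81 of the 314 copies of GCGCAGGG on the 6 nuclear chromosomes, or 4.57 per Mb against 2.82 on autosomes. Of the X copies, 20 (24.7%) lay within 50 bp of a merged summit and 13 (16%) at an optimal one. Of the 233 autosomal copies, 6 (2.58%) lay at a merged summit and 0 at an optimal one. A further 2 letters of the motif, TC directly before these 8, were examined after the data had been seen. With TC there were 25 copies, of which 19 were on X. Of these 19, 12 (63.2%) lay at a merged summit and 9 (47.4%) at an optimal one, and 0 of the 6 autosomal copies did so. With only 6 copies, a count of 0 still allows a large share by counting error alone. Without TC, 8 of 62 X copies and 6 of 227 autosomal copies lay at a merged summit.

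Further optimal X regions with GCGCAGGG lay 4921 bp upstream of xol-1, the switch gene of male fate, with signal 92.5, and 631 bp upstream of ins-39, an insulin-like peptide gene, with signal 83.9. The xol-1 region ranked 51, 247 and 148 in replicates 1 to 3 and 24457 in replicate 4. The only optimal summit on X in a coding exon also held these letters. It lay in pks-1, a polyketide synthase gene (chrX:5429369-5429724, signal 81.2), and ranked between 104 and 463 in replicates 1, 2 and 4 and 20396 in replicate 3, far below the others. Of the 18 regions, 7 were covered by the 1037 highest regions of all 4 replicates, against 36 of the other 3827 X regions. Among the 7 was the overlapping pair in Y41G9A.17, which met the same replicate regions (ranks 41, 41, 25 and 26). By position, 8 of the 18 lay in the first 25% of X, 6 in the middle 50% and 4 in the last 25%.

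**Figure D1:**
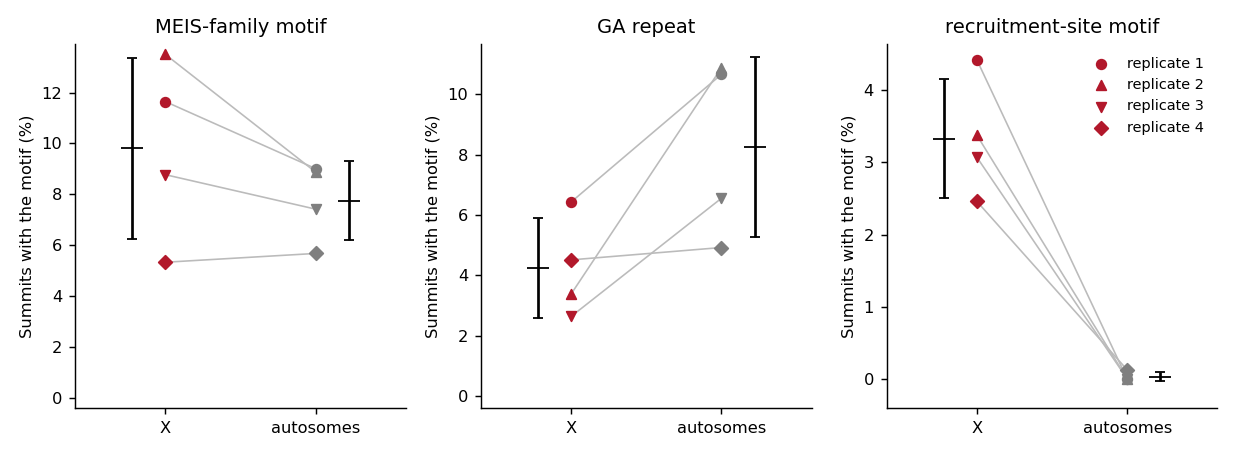
Share of summits with each of 3 motifs within 50 bp, in percent, among the 1037 highest nuclear regions of each replicate, on X and on autosomes. From left to right the motifs are TGACAG, GAGAGAGA and GCGCAGGG, lines join the values of a replicate, and black marks give the mean with SD (n = 4). In the right panel all X values lie from 2.46 to 4.42%, above the autosomal values of 0 to 0.126%.

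The MEIS-family core TGACAG, reported as bound by UNC-62 relatives in vertebrates, was more frequent at summits than beside them on X and on autosomes alike. The 4 sequences below are the strongest X regions that carry it without GCGCAGGG. They come from chrX:10766180-10766280, chrX:1093234-1093334, chrX:9547310-9547410 and chrX:10147357-10147457, are drawn as above, and have TGACAG in capitals on either strand.
sma-9: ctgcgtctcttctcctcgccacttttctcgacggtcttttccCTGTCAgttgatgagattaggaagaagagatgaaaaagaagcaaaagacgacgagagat
pigx-1: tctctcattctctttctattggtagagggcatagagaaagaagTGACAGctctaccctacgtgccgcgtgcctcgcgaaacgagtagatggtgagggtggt
F49E2.5: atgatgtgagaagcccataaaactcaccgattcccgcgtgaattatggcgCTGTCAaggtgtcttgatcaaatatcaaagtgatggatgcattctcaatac
unc-115: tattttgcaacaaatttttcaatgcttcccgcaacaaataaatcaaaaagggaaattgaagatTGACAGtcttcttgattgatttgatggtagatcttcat

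The region near sma-9, which encodes a Schnurri-type cofactor of the body size pathway, had signal 204.7 and ranked 12, 6, 13 and 1 in replicates 1 to 4. It lay between genes, 3052 bp upstream of the start. The region nearest to pigx-1 had signal 166.1 and ranked 10, 20, 36 and 6142, with replicate 4 far below the others. The region in an intron of F49E2.5 (131.0) ranked 19, 61, 41 and 377. The region at unc-115, an actin-binding protein of axon guidance, had 96.2 and stood apart, with ranks of 56 and 68 in replicates 1 and 3 and 5394 and 20220 in replicates 2 and 4.

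TGACAG lay at 243 of 3845 X summits (6.32%) and at 3.95% of windows centred 250 bp to either side. On autosomes the shares were 5.15 and 3.30%. All windows held it at 3.86% on X and 3.31% on autosomes, so X was also higher away from the regions. Among optimal summits, 26 of 249 on X (10.4%) and 79 of 788 on autosomes (10.03%) held it. Their flanking windows held it at 4.42% on X and 2.98% on autosomes, so the ratio of summits to flanks was 2.36 on X and 3.36 on autosomes. In the replicates' highest regions it lay at 11.6, 13.5, 8.77 and 5.33% of X summits and at 9.01, 8.88, 7.42 and 5.67% of autosomal ones. X was higher in 3 of 4 replicates, by 2.07 points on average (SD 2.10, n = 4; exact sign-flip p = 0.25, adjusted p = 0.269), and the ranges overlapped. Less the flanking windows the difference was 0.710 points, and it was 1.22 points without replicate 2. TGATTGAT, the composite of a PBX-type and a MEIS or Hox site, lay at 12 optimal summits on X (4.82%) and at 3.17% on autosomes. Its flanking shares were 1.00% on X and 0.571% on autosomes, so the ratio of summits to flanks was 4.8 on X and 5.56 on autosomes.

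GAGAGAGA, a repeat common at C. elegans promoters, showed the opposite order. It lay at 12 of the 249 optimal X summits (4.82%) and at 87 of 788 autosomal ones (11%). Chromosome V came nearest to X with 7.41%, and I to IV had 9.82 to 13.5%. Among merged summits the share was 1.38% on X and 1.61% on V. In the replicates it was at 6.43, 3.38, 2.63 and 4.51% of X summits and at 10.7, 10.9, 6.55 and 4.92% of autosomal ones. X was lower in 4 of 4 replicates, with a mean difference of -4.02 points (SD 2.90; exact sign-flip p = 0.125, adjusted p = 0.146). The ranges overlapped, and in replicate 4 the difference was -0.410 points. All windows held it at 0.553% on X and 0.688% on autosomes, with 0.498% on V. With all regions of each list the difference was -0.560 points, and with 25 bp in place of 50 bp it was -1.81 points and lower on X in 3 of 4. Among the 20% of merged regions with the highest signal, 3.14% of X summits and 7.45% of autosomal ones held it. The E-box CACGTG was at 4.02% of optimal X summits and 4.44% of autosomal ones, and the homeodomain core TAATTA at 0.803 and 1.40%, below its flanking shares of 5.02 and 4.70%.

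Along the chromosome, X regions were dense except at the left end, and a smaller share of the optimal ones than on any autosome lay in the middle of the chromosome. X carried 217 regions per Mb, the highest of the 6 chromosomes, where the autosomes together had 178. It is also the chromosome with the fewest protein-coding genes per Mb, 154 against 209, so there were 1.41 regions per gene on X and 0.853 on autosomes. Among 20 bins of equal length, the density on X ran from 100.5 per Mb in the first bin to 261.9 in the sixteenth, with a median of 226.3. The first bin, at the left end, held 89 regions and the second 135, and every other bin held at least 163. In bins of 1 Mb the lowest count was 110 in the first and the highest 270 in the fourteenth.

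The density of all merged regions had a coefficient of variation across the 20 bins of 17.7% on X, within the autosomal range of 16.03 to 30.3%. The density of optimal regions had a coefficient of variation across the 20 bins of 36.6% on X, where the autosomes ranged from 44.3% on IV to 80.8% on V. This measure falls as the number of regions rises, and X had 249 optimal regions where the autosomes had 133 to 167, so X and IV are not shown to differ. The middle 50% of X held 53.1% of its merged regions, 51.8% of its optimal regions and 52.9% of its genes. On the autosomes the middle 50% held 55.8 to 60.2% of merged and 57.1 to 76.5% of optimal regions, and 51.96 to 59.4% of genes. On IV the middle 50% held 55.8% of merged and 57.1% of optimal regions and 59.4% of genes, so there the regions were not more central than the genes. In the highest regions of replicates 1 to 4, the middle 50% of X held 51.4, 51.5, 51.8 and 54.1% of the X regions. On the autosomes it held 69.0, 66.5, 68.0 and 66.5%, so the ranges did not overlap. The mean difference of X to the autosomes was -15.3 points (SD 2.24, n = 4; exact sign-flip p = 0.125, adjusted p = 0.146). With all regions of each list it was -2.53 points, and X was again lower in 4 of 4 replicates. Spearman's rho across the 20 bins of X, which share the same libraries, was 0.375 between merged regions and genes and 0.668 between merged and optimal regions.

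**Figure D2:**
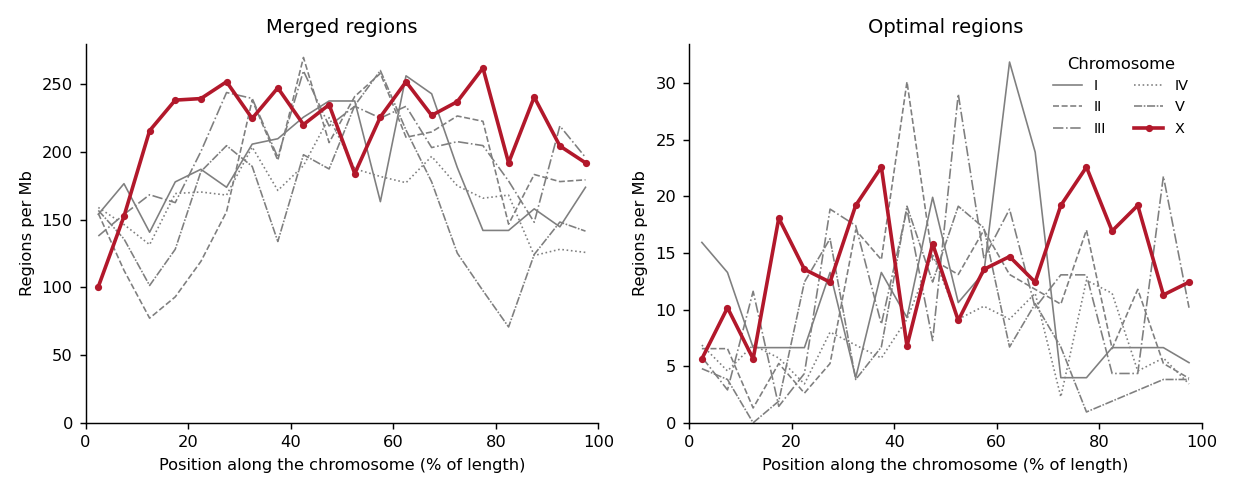
Regions per Mb in 20 bins of equal length along each chromosome, in the merged list (left) and among optimal regions (right), with the position given as percent of chromosome length. X is the thick line, and the autosomes are the thin lines. X rises from 100.5 per Mb at its left end and then keeps above 150, and the middle 50% of the length holds 51.8% of optimal regions on X and 57.1 to 76.5% on the autosomes.

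Neighbouring X regions were a median of 2662 bp apart, and autosomal ones 3021.5 bp. On X 33.3% had a neighbour within 1 kb, and 31.8% on autosomes. Of 22 runs of at least 6 regions with gaps under this distance, 8 were on X. The longest on X held 9 regions over 5141 bp at mdl-1, which encodes a Mad-type bHLH protein, and 5 of them were optimal. A run of 7 at nhr-14, a nuclear hormone receptor gene, held 3 optimal regions. A run of 6 lay in daf-12, the nuclear receptor of the dauer decision, and had no optimal region.

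X regions stood high within the lists. In the merged list 6.48% of X regions were optimal (exact 95% interval 5.72 to 7.30%), where 5.59% of all regions and 5.36% of autosomal ones were. The shares on I (5.93%), III (5.87%) and II (5.80%) lay inside the X interval, and those on V (4.82%) and IV (4.52%) lay below it. The median X region lay at percentile 53.8 of the merged signal, the highest of the 6 chromosomes, and the median autosomal region at 49.3. With the whole list cut by signal into 5 equal groups, the X regions numbered 892, 800, 715, 705 and 733 from the highest group down. The median signal was 14.6 on X and 14.1 on autosomes. Base composition at the summits was 38% G+C on X and 36.8% on autosomes.

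In the single replicates the median percentile of X regions was 53.5, 52.6, 52.1 and 52.0, and that of autosomal regions 49.2, 49.4, 49.5 and 49.5. The ranges did not overlap, and X was 3.16 points higher on average (SD 0.821, n = 4; exact sign-flip p = 0.125, adjusted p = 0.146). X made up 20.1, 19.4, 19.3 and 19.2% of the whole lists of replicates 1 to 4. Among the 1037 highest nuclear regions it made up 24.0, 22.9, 22.0 and 23.5%, or 23.1% ± 0.879 (SD, n = 4), against 17.7% of chromosome length. The excess of 5.42 points was seen in 4 of 4 replicates (exact sign-flip p = 0.125, adjusted p = 0.146). It was 1.82 points over the whole lists and, in a setting chosen after the data had been seen, 4.77 points without regions near tRNA genes. In place of length, the share of protein-coding genes on X gave an excess of 9.42 points. In the top 20 regions the replicates spread widely, from 15% in replicate 2 to 35% in replicate 1.

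**Figure D3:**
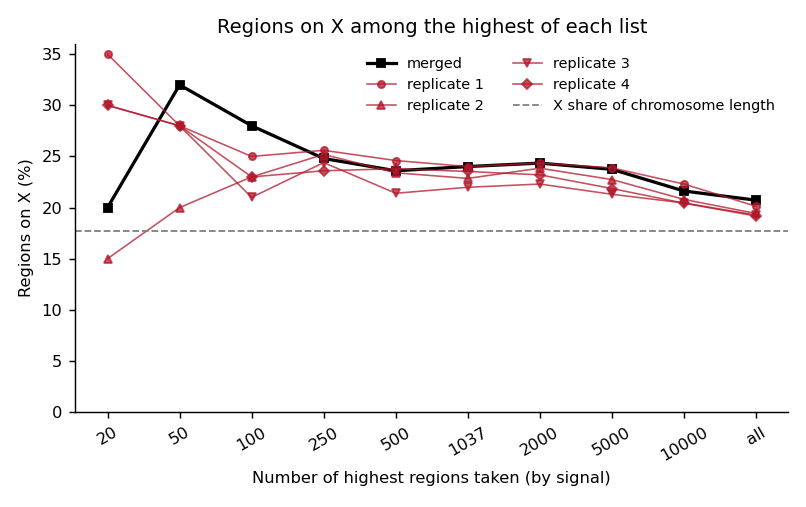
Percent of regions on X among the highest regions by signal, for rising numbers taken, in the merged list and in each replicate. The dashed line is the share of X in chromosome length, 17.7%. From 100 regions on, every list lies above that line, and the share falls to 19.2 to 20.7% when all regions are taken.

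By annotation, X summits lay more often between genes and less often in promoters than autosomal summits. Each summit had 1 class, with promoters (up to 1000 bp before the start of a coding transcript) taking precedence over exons and UTRs, these over introns, and introns over intergenic sequence. On X, 1032 merged summits (26.8%) were in promoters, which cover 18.5% of its bases, a ratio of 1.45. Intergenic summits numbered 1247 (32.4%), equal to their 32.3% of bases, and intronic ones 1003 (26.1%). Coding exons held 365 (9.49%), or 0.518 times their 18.3% of bases. Autosomal promoters held 30.3% of summits on 23.3% of bases, a ratio of 1.30, and autosomal intergenic sequence held 25.3% on 23.5%, a ratio of 1.08. Among the 249 optimal X summits, 93 were in promoters (37.3%), 99 intergenic (39.8%), 52 intronic (20.9%), 2 in each kind of UTR and 1 in a coding exon. Chromosome II had a lower optimal share in promoters than X, 36.2%, and II, IV and V had 35.8 to 36.8% intergenic. Relative to bases, optimal promoter summits had a ratio of 2.02 on X and 1.83 on the autosomes together, and intergenic ones 1.23 and 1.41. By ratio, the order of X and the pooled autosomes was thus the reverse of that by share. Single autosomes differed, since the optimal promoter ratio was 2.29 on III and 2.16 on I, above X. The optimal intergenic ratio on IV was 1.26, close to X.

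Promoter summits among the highest regions made up 38.2, 37.97, 32.02 and 22.5% on X in replicates 1 to 4. On autosomes they made up 41.1, 41.1, 41.7 and 33.4%. X was lower in 4 of 4, with a mean difference of -6.66 points (SD 4.19), which was -3.06 points in replicates 1 and 2 and -10.3 points in replicates 3 and 4. The ranges overlapped. Intergenic summits made up 38.6, 38.4, 43.0 and 35.2% on X and 33.6, 29.6, 28.9 and 26.99% on autosomes. X was higher in 4 of 4, by 9.004 points (SD 3.78), and the ranges did not overlap. Coding exon summits differed by -1.82 points (SD 2.01; lower on X in 4 of 4), and by -0.83 points without replicate 4. For these 3 classes the exact sign-flip test gave p = 0.125 and adjusted p = 0.146. Intronic summits differed by 0.452 points (SD 5.34; exact sign-flip p = 0.875, adjusted p = 0.875), with 2 replicates in each direction. The shares of bases differ in the same directions, since 32.3% of X and 23.5% of the autosomes are intergenic, and their part in the differences was not tested.

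**Figure D4:**
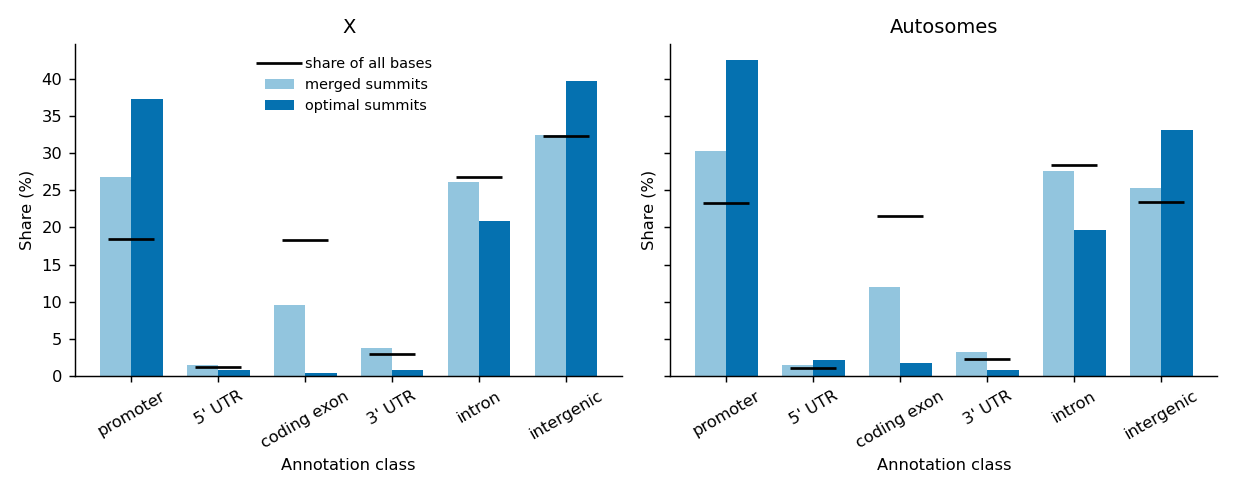
Share of summits in each annotation class in percent, for merged and optimal summits (bars), with the share of all bases in that class (black lines), on X (left) and on autosomes (right). Optimal X summits are in promoters at 37.3% against 18.5% of bases and in coding exons once in 249.

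The median distance from an X summit to the nearest protein-coding start was 1368 bp, and 1145 bp on the autosomes together, with 1340 bp on III. Within 200 bp of a start lay 11.6% of X summits and 15.1% of autosomal ones. Over 5 kb away lay 322 X summits (8.37%) and 7.12% of autosomal ones, with 9.79% on IV, more than on X. Among the highest regions of replicates 1 to 4 the medians were 1320, 1313, 1548 and 1597 bp on X and 1117, 1010.5, 978 and 1020 bp on autosomes. X was farther in 4 of 4, by 413.1 bp (SD 189.6, n = 4; exact sign-flip p = 0.125, adjusted p = 0.146), and the ranges did not overlap.

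A larger share of the genes on X than of those on the autosomes together had a merged region at a start. A summit within a window from 1000 bp before to 200 bp after a start was found for 976 of the 2731 protein-coding genes on X (35.7%). Of all genes 29.1% had one, and of autosomal genes 28.02%. Chromosomes III (33.2%) and I (32.0%) came nearest to X. Optimal summits marked 98 X genes (3.59%), where 2.63% of all genes and 2.48% of autosomal genes had one. By chromosome, III had 3.94% and I 3.51%, close to X, and V had the lowest share, 1.54%. In the highest regions of the replicates the shares were 3.66, 3.77, 2.86 and 2.20% on X and 2.30, 2.34, 2.39 and 2.02% on autosomes. X was higher in 4 of 4, by 0.858 points, with overlapping ranges (SD 0.630; exact sign-flip p = 0.125, adjusted p = 0.146). The difference was 1.39 points in replicates 1 and 2 and 0.323 points in replicates 3 and 4.

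Nuclear hormone receptors, ligand-regulated factors that are very numerous in nematodes, were the gene list with most optimal regions at X starts after the tRNA genes. Of 23 nhr genes on X, 15 (65.2%) had a merged and 6 (26.1%) an optimal summit at a start. Of 246 on autosomes, 72 (29.3%) had a merged and 4 (1.63%) an optimal summit. Over all protein-coding genes the shares were 35.7 and 3.59% on X and 28.02 and 2.48% on autosomes. The list was not tested against these shares. The region at nhr-35 had signal 67.6 and ranked 181, 139, 13573 and 8602 in replicates 1 to 4, so replicates 1 and 2 stood high and 3 and 4 low. The region at nhr-1 (64.8) ranked 659, 58 and 1785 and was not in the list of replicate 4. The region at nhr-48 (54.5) ranked 520, 459, 800 and 3601.

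Of 15 genes of neuronal function on X, 8 (53.3%) had a merged and 3 (20%) an optimal summit at a start. Over all protein-coding genes on X the shares were 35.7 and 3.59%, and this list was not tested against them. Besides unc-115, the genes with an optimal summit were syd-2, which encodes the synaptic scaffold liprin-alpha, and unc-18, which encodes a syntaxin-binding protein of synaptic vesicle release. The region at syd-2 had signal 69.6 and ranked 106, 76, 1000 and 16923. The region at unc-18 (57.2) ranked 430, 3303, 957 and 8380. Replicate 4 was the lowest at both.

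Of 34 cuticle and body shape genes on X, 14 (41.2%) had a merged summit, and sma-9 had the only optimal one, a second region at 43.3 and 805 bp upstream of a start. On autosomes 34 of 129 such genes (26.4%), here the col collagens, had a merged summit and 3 an optimal one. Over all protein-coding genes 35.7% had a merged summit at a start on X and 28.02% on autosomes. The list was not tested against these shares. Of the 2 ribosomal protein genes on X, rpl-11.2 had an optimal region (70.8) among the 1037 highest of all 4 replicates, and rpl-25.1 had one of signal 13.7 that was not optimal. On autosomes 61 of 74 ribosomal protein genes (82.4%) had a merged and 22 (29.7%) an optimal summit at a start. Of 74 microRNA genes on X, 19 (25.7%) had a merged and 5 (6.76%) an optimal summit, and of 187 on autosomes 56 (29.9%) and 10 (5.35%) did. A single region (85.9, in an intron) served mir-54, mir-55 and mir-56 of 1 cluster and ranked 152, 328, 47 and 2201.

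Of the other lists, the nspc peptides had 1 optimal summit at an X start and the rest had 0. Of 6 genes of the X signal and dosage compensation, fox-1 (19.3), sdc-2 (18.4) and ceh-39 (13.0) had a merged summit at a start, and sex-1, xol-1 and sdc-1 did not. Of 5 heterochronic genes, nhr-25 (30.6), lin-14 (29.2) and daf-12 (13.2) had one. Of 8 yolk and GATA factor genes, elt-3 (20.1), elt-2 (17.97) and vit-5 (12.9) had one. Of 10 genes of EGF, FGF and Wnt signalling, 5 had one, led by egl-17, an FGF-type ligand, at 34.6, which missed the optimal list. Of 6 muscle genes 3 had one, led by unc-27 (16.9). Over all protein-coding genes on X the share was 35.7%, and these short lists were not tested against it.

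Of 23 homeobox genes on X, 5 (21.7%) had a merged summit, led by ceh-89 (14.3), and all 5 are ceh genes. The X list also holds homeobox genes of other names, and the autosomal list holds ceh genes only. The lists are thus not alike, and the order of their shares is not a comparison of X with autosomes. Of the 45 autosomal genes 26.7% had a merged summit. Of 32 flp and nlp neuropeptide genes 5 (15.6%) had one, led by flp-5 (22.5), and on autosomes 18.6% did. Of 33 chemoreceptor genes 4 (12.1%) had one, led by srv-7 (15.2), and on autosomes 11.4% did. The share over all protein-coding genes on X was 35.7%, and none of these lists was tested against it. Of 18 nspc genes, all on X, nspc-17 alone had one. tRNA genes are concentrated on X, with 276 of 612. Summits within 100 bp of one made up 19 of 249 optimal X regions (7.63%) and 5 of 788 autosomal ones (0.635%). In the replicates' highest regions they were 4.42, 4.22, 4.39 and 3.28% on X and 0.254, 0.375, 0.742 and 0.378% on autosomes (exact sign-flip p = 0.125, adjusted p = 0.146; higher on X in 4 of 4). The mean difference was 3.64 points, and 1.16 points with all regions of each list. Reads from near-identical tRNA copies can be misassigned, so single tRNA genes are uncertain.

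Counted over whole genes, with 5000 bp upstream, lin-14 held the most X regions, 25 in 25312 bp, and 3 of them were optimal. This gene encodes a factor of larval developmental timing. It was followed by nhr-27 with 18 in 107756 bp, daf-12 with 16, F49E2.5 with 15, and mbl-1, which encodes a muscleblind splicing factor, and nhr-1 with 14 each. Per kb, lin-14 had 0.988 regions and nhr-27 had 0.167, so counts and densities ordered these genes differently. H18N23.2, ZK470.2, kin-20, nhr-40 and the innexin gene unc-9 had 13 each, and kin-20, a casein kinase gene, had 4 optimal regions among them. The median X gene had 1 region, and 673 genes (24.6%) had none.

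Among the 20 strongest X regions, the remaining ones were near serp-1.1 (150.5), ZK899.6 (146.1), nhr-3 (131.0), epn-1 (128.7), which encodes the endocytic adaptor epsin, puf-9 (121.2), which encodes a Pumilio-type RNA-binding protein, ugt-50 (121.0), F55G7.5 (114.9), F22H10.2 (97.9) and nhr-14 (96.2). The region at serp-1.1 ranked 15, 21 and 104 in replicates 1 to 3 and was not in the list of replicate 4. The region at nhr-3, in an intron, ranked 68, 28, 65 and 12. The region at ZK899.6 ranked 58, 112, 8 and 6, and thus stood higher in replicates 3 and 4. A pair of them, with signals of 122.7 and 100.1, had no protein-coding start within 5 kb. The first of this pair (chrX:13700693-13701048) ranked 59, 55, 43 and 56, so all 4 replicates placed it alike.

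At the limit of the optimal list, the last X regions inside had signals of 37.45 near C29F7.3, 37.43 near the glutamate transporter gene glt-1 and 37.35 near F48F7.5. The first outside had 37.08 near T01C1.4, 36.93 near nck-1 and 36.91 near R04E5.9. Those inside were covered by the highest regions of 0, 0 and 1 replicates, and those outside by those of 1, 1 and 2.

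Recurrence described how far merged X regions were found again in the replicate lists, which share their reads with the merged list. Of the X regions, 72 were covered by at least 1 bp in no replicate list, 678 in 1, 1407 in 2, 1112 in 3 and 576 (14.98%) in all 4. In all 4 were 13.1% of all regions and 12.6% of autosomal ones, and II (13.98%) and III (13.7%) came nearest to X. Replicate 1 covered 75.2% of X regions, replicate 2 55.4%, replicate 3 59.7% and replicate 4 47.2%. The replicate lists spanned 11.6 to 12.3% of the bases of X and 10.1 to 11.1% of autosomal bases, and the part of this in the recurrence was not tested. By the 1037 highest regions of all 4 replicates, 43 X regions (1.12%) were covered, where 0.889% of all regions and 0.83% of autosomal ones were. On chromosome I the share was higher than on X, with 36 regions (1.28%). The median signal of the 43 X regions was 90.1, and that of the 3216 X regions covered by none was 13.7.

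Of the 249 optimal X regions, 13, 61, 82, 53 and 40 were covered by the highest regions of 0, 1, 2, 3 and 4 replicates. Regions covered by none were 5.22% on X and 2.41% on autosomes, and regions covered by all 4 were 16.1 and 14.0%. Between replicates, 15.7, 16.9, 17.1 and 16.8% of the highest X regions of replicates 1 to 4 were covered by those of the 3 others. On autosomes 14.0, 13.9, 14.1 and 14.4% were. X was higher in 4 of 4, by 2.54 points (SD 0.619; exact sign-flip p = 0.125, adjusted p = 0.146), and the ranges did not overlap. Each of these values asks for coverage in all 4 lists, so the 4 values count largely the same shared regions. They are not independent, and their number in 1 direction, their SD, their ranges and this p do not measure the spread between replicates. The direction of the difference turned without replicate 2, where it was -0.267 points among the other 3, and it was 0.543 points without replicate 3 and 1.23 points without replicate 4.

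**Figure D5:**
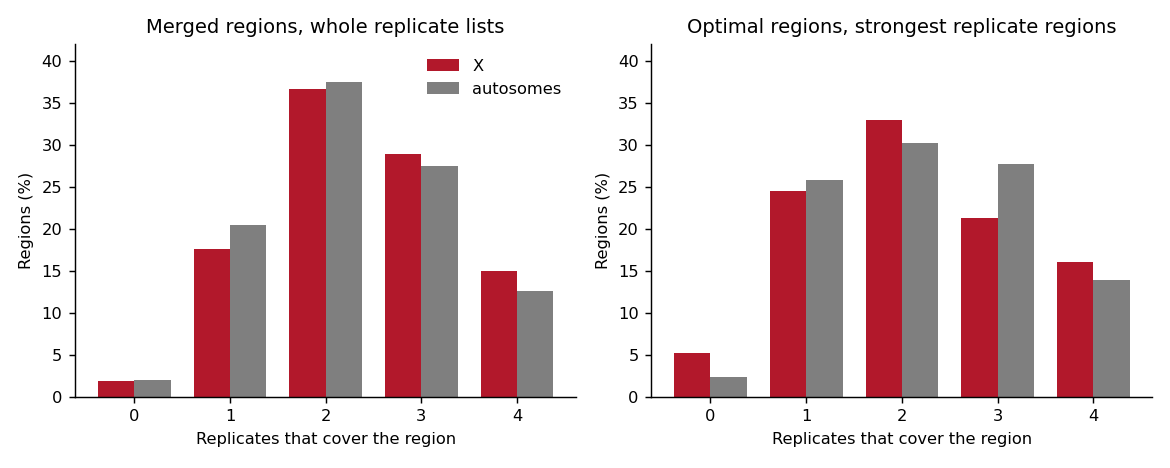
Percent of X and autosomal regions by the number of replicates that cover them by at least 1 bp, for merged regions in the whole replicate lists (left) and for optimal regions in the 1037 highest regions of each replicate (right). On the left 14.98% of X regions and 12.6% of autosomal regions are in all 4 lists, and on the right 5.22% of X regions and 2.41% of autosomal regions are in none.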

How the data were processed

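ChIP-seq of 4 replicates was analysed from peak lists on ce11 (WBcel235). Per the deposited notes, the authors derived each list of peaks and background from alignments and a control, the merged list from all 4 replicates, and the optimal list by irreproducible discovery rate. The authors' columns give a signal value and a −log10 q-value per region, and the summit as an offset in bp, a value of another kind. No source used here names the caller or the aligner. Alignments and control were not analysed here. Without counts in the deposited lists, depth is unknown. Signal was used as ranks within a list, and to describe regions. The lists held 30000 regions in replicates 1 to 3 and 28073 in replicate 4. All regions lay within the chromosome lengths.

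Genes came from Ensembl release 115, and sequences from the RefSeq assembly of WBcel235. Summits were classed and motifs were searched on both strands with Python 3.11.15, numpy 2.4.6, pandas 2.3.3 and scipy 1.17.1, in code tested on simulated data. Overlap required 1 bp. X minus autosomes was computed per replicate, and 14 such differences were tested by an exact two-sided sign-flip test with Benjamini-Hochberg adjustment. Replicates are biological per the labels. Intervals cover counting error only. The members, lists, motifs and tests were chosen with earlier results of these data known, and 3 alternatives, marked where their values are given, were chosen after seeing the data. Named genes are the nearest start within 5000 bp for the 20 strongest X regions, up to 3 members of each gene list by signal at a start, the genes with most summits and the regions at the limit of the optimal list. Genes at further regions with GCGCAGGG (gtr-1, xol-1, ins-39, pks-1) and at runs of regions (mdl-1) were named after their values were seen. Of the heterochronic list, din-1 is not on X in the annotation and let-7 was not matched. Other alternatives varied the number of regions, the windows, the overlap, the autosomes and the build, and left out each replicate.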

Additional observations from a re-analysis of the deposited data

Results flagged for a closer look

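Among 40 sets of 4 replicate values, 3 had a value set apart from the others by Dixon's criterion at the 95% level, and chance gives about 1 in 20 such sets. Each was replicate 4. Its share of promoter summits among the highest autosomal regions was 33.4%, where the others had 41.1 to 41.7%, and its X share was also the lowest, at 22.5%. Its share of X regions in the middle 50% was 54.1%, where the others had 51.4 to 51.8%. It alone had an autosomal summit with GCGCAGGG, 1 of 793 or 0.126%, where the others had 0. With 3 values of 0 any single summit meets the criterion, so this set is marked by construction.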

How the results depend on the processing

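Of 135 alternatives to the 14 differences between X and the autosomes, 129 had the same direction as the main value and 6 had the other. The intronic share, 0.452 points higher on X, was -0.701 points without chromosome V, -0.114 with the 5000 highest regions, -1.27 with all regions of each list and -3.01 with the 500 highest. Leaving out 1 replicate gave -2.05 to 1.82 points, with the negative value without replicate 4. Recurrence ranged from -0.267 points without replicate 2 to 2.90 points without replicate 1, and these fits ask for coverage by both others in place of 3. With regions held in at least 1 other replicate it was 0.928 points, higher on X in 2 of 4 replicates, and on ce10 it was 3.26 points. The other 12 measures kept their direction under every alternative run. The difference in GCGCAGGG was 0.212 points with all regions, 6.17 points with the 500 highest and 2.82 points with TC before it, a setting chosen after the data had been seen. The TGACAG difference was 2.09 points without regions holding GCGCAGGG, also chosen afterwards, and 0.798 points within 25 bp, higher on X in 2 of 4 replicates. The sign-flip test used cannot go below 0.125 with 4 replicates. Differences were taken within each replicate, and the labels give 1 group, so no further pairing applies. The unknown depth limits all ranks.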
